A study of Mus musculus with 7 samples.

Results

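Open chromatin of MEFs, the starting cells of reprogramming, was compared with open chromatin of ESCs, its end point, by overlapping the ATAC-seq peak list of day 0 with the peak list of ESCs. Peaks of both lists that overlapped by at least 1 bp were merged into 1 shared region, and every other peak is a MEF-only or an ESC-only region. The comparison has 74736 regions, built from 2 of 7 peak lists that hold 293147 peaks in all. A MEF-only region is thus one with a called day 0 peak and no called ESC peak. The common depth of the libraries is not stated, so a missing peak says only that none was called.

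The study followed MEFs through reprogramming by OKSM (Oct4, Klf4, Sox2 and Myc) and collected 1 ATAC-seq library at each time-point. The day 0 MEFs came from mid-gestation embryos. Mice of the B6;129S4 background with the Col1a1tm1(tetO-Pou5f1,-Klf4,-Sox2,-Myc)Hoch allele were crossed with B6.Cg mice that carry the allele Gt(ROSA)26Sortm1(rtTA\*M2)Jae, both from stocks marked /J. The MEFs grew untreated in high-glucose DMEM with 10% FBS, so they carried the silent OKSM cassette in the *Col1a1* locus and the doxycycline-responsive rtTA in the ROSA26 locus. The ESCs were the untreated Bruce-4 line in Knock Out DMEM with 20% FBS and mLIF. The labels enter the MEF genotype for the ESC library too. The day 1, 2, 3, 6 and 9 libraries came from the same MEFs under 2 µg/mL doxycycline and enter here only as a look at where the regions of the 2 end points lay in between. Each side of the comparison is 1 library, 1 MEF preparation and 1 ESC line, with different media, so cell state, genotype, culture and library cannot be told apart and no p-value was computed.

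ATAC-seq cuts accessible DNA with the Tn5 transposase, and a peak is a stretch where cuts pile up. Promoters of genes that every cell uses are open in most cell types, whereas distal enhancers are open in few and hold the binding motifs of the factors that work in that cell. In fibroblasts the AP-1 family (Fos and Jun dimers), together with Tead and Runx factors, is known to occupy many enhancers. In ESCs Oct4 and Sox2 bind next to each other on a composite motif, with Klf factors, Esrrb, Tfcp2l1 and Nanog at many of the same enhancers. Fibroblasts are mesenchymal cells that make collagen and fibronectin, and ESCs are epithelial cells held together by E-cadherin.

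The following reference sequences show what an AP-1 match in an enhancer-like MEF-only region looks like. They are the middle parts of the widest distal MEF-only regions with an AP-1 match near 3 different genes of the fibroblast lists, and 105 distal regions near genes of those lists qualified. Capitals mark the AP-1 match TGANTCA. All 3 are mm10, plus strand.
Twist2, chr1:91858213-91858319: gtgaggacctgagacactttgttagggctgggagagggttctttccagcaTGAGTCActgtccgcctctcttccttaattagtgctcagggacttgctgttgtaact
Tead3, chr17:28341054-28341160: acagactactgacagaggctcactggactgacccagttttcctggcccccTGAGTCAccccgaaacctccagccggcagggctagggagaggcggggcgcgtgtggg
Thy1, chr9:43945319-43945425: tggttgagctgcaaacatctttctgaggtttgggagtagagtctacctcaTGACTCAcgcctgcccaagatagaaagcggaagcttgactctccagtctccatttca

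The region by *Twist2*, a bHLH factor of mesenchyme (ENSMUSG00000007805.4), was chr1:91857774-91858855, 1082 bp wide, and lay in intergenic sequence 56304 bp downstream of the nearest *Twist2* TSS. The region by *Tead3*, a Tead family gene, was chr17:28340536-28341503, 968 bp wide, in an intron 4020 bp upstream. The region by *Thy1*, a fibroblast surface antigen whose loss is an early step of reprogramming, was chr9:43944901-43945814, 914 bp wide, in an intron of another gene 97570 bp upstream. The *Twist2* and *Tead3* regions had a called peak on all 5 days of doxycycline, and the *Thy1* region on days 1, 2, 3 and 6 but not on day 9.

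The following sequences show the Oct-Sox composite motif in distal ESC-only regions. No region near a gene of the ESC lists held an exact match, so the 3 widest regions with an exact match near any protein-coding gene are shown, of 10 such regions. The *Tfcp2l1* region is the 1 region near an ESC-list gene that came within 1 mismatch and lay outside masked repeats. Both choices were made after the data were seen. Capitals mark the match on the strand shown, in mm10.
Tfcp2l1, chr1:118648131-118648244, minus strand: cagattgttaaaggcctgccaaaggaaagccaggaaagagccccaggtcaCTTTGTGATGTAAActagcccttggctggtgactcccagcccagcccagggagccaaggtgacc
Sox9, chr11:112811216-112811329, plus strand: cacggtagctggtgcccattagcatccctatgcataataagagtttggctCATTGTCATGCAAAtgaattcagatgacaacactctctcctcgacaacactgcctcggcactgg
Klf13, chr7:63957197-63957310, plus strand: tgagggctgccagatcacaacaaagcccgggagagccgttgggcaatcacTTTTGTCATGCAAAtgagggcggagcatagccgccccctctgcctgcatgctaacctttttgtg
Grap2, chr15:80619126-80619239, minus strand: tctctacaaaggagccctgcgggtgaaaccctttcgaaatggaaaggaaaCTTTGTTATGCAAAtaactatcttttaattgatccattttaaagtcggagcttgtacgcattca

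*Tfcp2l1* is itself a transcription factor of naive pluripotency, and its region was chr1:118647863-118648478, 616 bp wide, in an intron 19917 bp downstream of the nearest TSS. It had peaks on days 3, 6 and 9. The regions by *Sox9* (chr11:112810894-112811574, 28670 bp downstream) and *Klf13* (chr7:63956995-63957579, 18080 bp upstream) were intergenic and had a peak on each of the 5 days. The region by *Grap2* (chr15:80618965-80619459) was intronic and had a peak on none of them. ESC-only regions with this motif thus included some with peaks throughout the days of doxycycline and some without.

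Day 0 MEFs had 61241 peaks, of which 12845 overlapped an ESC peak, a share of 20.97% (exact Clopper-Pearson 95% interval 20.7 to 21.3). ESCs had 27074 peaks, of which 13266 overlapped a day 0 peak, a share of 49.0% (48.4 to 49.6). Such intervals cover counting error only, and peaks are not replicates of a cell state. Of the 74736 regions, 64.8% (48396) were MEF-only, 18.5% (13808) were ESC-only and 16.8% (12532) were shared. MEF-only regions covered 17.8 Mb, ESC-only regions 5.08 Mb and shared regions 9.02 Mb.

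The lists were of unequal length, and the class sizes moved with it. When the 27074 widest day 0 peaks, all at least 455 bp, were set against the 27074 ESC peaks, 39.2% of the day 0 peaks and 41.8% of the ESC peaks had a partner. The regions then numbered 16455 MEF-only, 15763 ESC-only and 10605 shared. Near balance of the 2 sides follows from the equal list lengths. Only the day 0 list was cut, and the ESC list kept its peaks down to 200 bp. An ESC peak over a narrower day 0 peak thus counted as ESC-only in that comparison. Counts over gene lists below are given in both peak sets, and counts at single genes are those of all peaks.

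**Figure D1:**
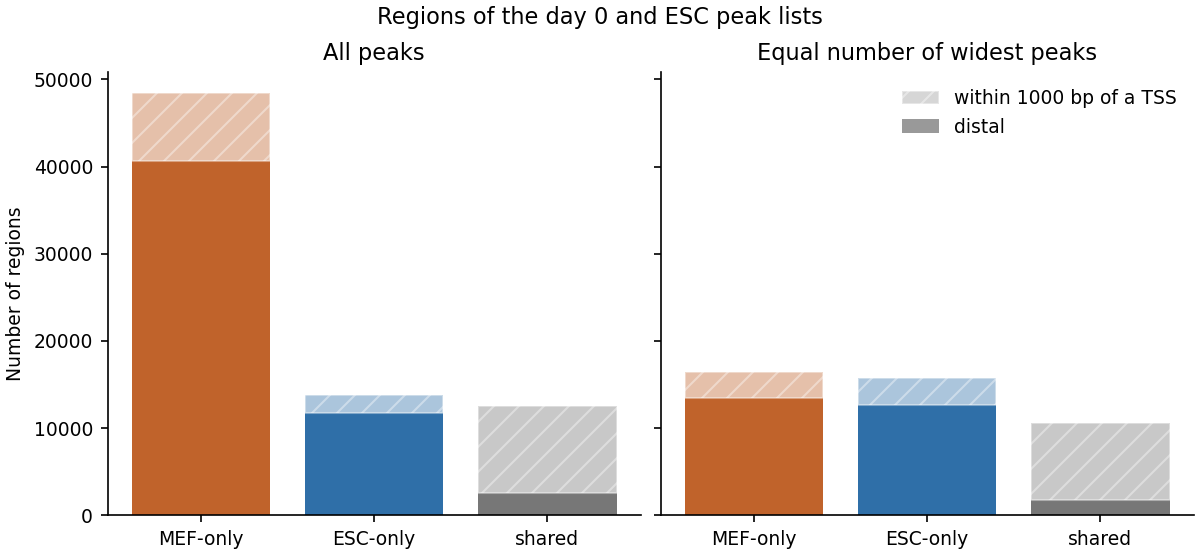
Number of regions (y axis) in each class (x axis), for all peaks on the left and for the 27074 widest peaks of each library on the right, with regions within 1000 bp of a TSS hatched and distal regions solid. With all peaks MEF-only regions (48396) outnumbered ESC-only regions (13808), with equal numbers of peaks the classes held 16455 and 15763, and in both panels most shared regions were near a TSS.

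Shared regions sat at promoters and cell state-specific regions sat away from them. Within 1000 bp of an annotated TSS lay 79.3% (78.5 to 80.0) of shared regions, 15.95% (15.6 to 16.3) of MEF-only regions and 15.2% (14.6 to 15.8) of ESC-only regions. With equal numbers of widest peaks the shares were 83.8%, 18.3% and 20.1%. Shared regions were also the widest, with a median of 697 bp against 284 bp for MEF-only and 317 bp for ESC-only regions. A shared region joins overlapping peaks of both lists and the others are single peaks, so part of this width is built in. The 40675 distal MEF-only and 11713 distal ESC-only regions lay at similar distances from a TSS, with medians of 13.4 kb and 14.2 kb, and the 2598 distal shared regions lay closer, at 9.26 kb.

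Among distal MEF-only regions, 51.7% (51.2 to 52.2) were in introns and 44.5% (44.0 to 45.0) were intergenic. For distal ESC-only regions this order was the other way round, with 44.5% (43.6 to 45.4) in introns and 51.7% (50.8 to 52.6) intergenic. The intergenic excess was seen in the ESC-only regions that lie mostly in repeat-masked sequence, described below, of which 64.6% were intergenic. The remaining ESC-only regions were 42.6% intergenic, close to the MEF-only share.

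At promoters the 2 libraries overlapped far more than elsewhere. Of 22028 protein-coding genes, 47.4% had a peak within 1000 bp of a TSS in both lists, 12.0% in MEFs alone, 2.71% in ESCs alone and 37.9% in neither. With the equal numbers of widest peaks 6.63% had one in MEFs alone and 6.80% in ESCs alone. The 200 bp around the gene start were CpG-rich (over 50% GC and an observed to expected CpG ratio over 0.6) at 76.8% of promoters open in both. At promoters open in MEFs alone the share was 44.6% (42.7 to 46.6), and at those open in ESCs alone it was 44.8% (40.8 to 48.9). At promoters with no peak in either list it was 12.3%. Promoters open in both libraries were thus more often CpG-rich than those open in 1 library or in neither. CpG-rich promoters belong largely to broadly expressed and developmental genes.

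Distal regions differed in base composition between the classes. The median GC content of the central 200 bp was 46.5% in MEF-only, 50.5% in ESC-only and 54.5% in shared distal regions, against 41.5% over all 200 bp tiles of the genome. CpG-rich windows made up 1.53% (1.41 to 1.65) of distal MEF-only and 12.2% (11.6 to 12.8) of distal ESC-only regions.

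Motifs of the factors of each cell state were counted as exact letter matches on both strands in the central 200 bp of each distal region, beside the share of 13237130 genome tiles of that length. AP-1 (TGANTCA) had the largest gap in percentage points between MEF-only and ESC-only windows among the 16 motifs. It was found in 24.5% (24.1 to 24.9) of 40648 distal MEF-only windows, in 21.3% (19.8 to 23.0) of 2579 distal shared windows and in 5.41% (5.01 to 5.83) of 11684 distal ESC-only windows, with 5.94% in genome tiles. ESC-only regions therefore held AP-1 at about the level of the genome.

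The AP-1 share rose with the width of MEF-only regions and not with the width of ESC-only regions. Across 3 equal bins of distal MEF-only regions, from the narrowest to the widest, it was 10.3%, 18.8% and 44.4%, and in the same bins of ESC-only regions 5.55%, 4.98% and 5.70%. With equal numbers of widest peaks the MEF-only share was 44.6% and the ESC-only share 5.78%. The matches were commonest at the middle of the MEF-only regions, with a second rise about 150 bp to either side. The 20 bp steps 110 bp out held a match in 2.31% and 2.46% of regions, and those 150 bp out in 2.73% and 2.78%. In the 20 bp steps on either side of the midpoint 3.4% and 3.50% of regions had a match, against 0.654% in the step 490 bp away. In distal shared regions the same 2 steps had 3.296% and 2.68%.

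Among the other motifs of MEF factors RUNX (TGTGGTT) was higher in MEF-only regions, with 6.81% (6.57 to 7.06) against 3.41% (3.09 to 3.76) in ESC-only regions and 4.67% in genome tiles. CEBP (TTGCNNAA) stood at 10.6% and 9.21%, with 9.38% in tiles, and the CArG box of serum response factor at 1.32% and 0.873%, with 1.16% in tiles. TEAD (ACATTCC) exceeded its 2.74% of tiles in both classes, with 5.85% (5.63 to 6.09) in MEF-only and 7.10% (6.64 to 7.58) in ESC-only regions. Its order turned with equal numbers of widest peaks, to 8.55% in MEF-only and 7.06% in ESC-only regions, so TEAD did not separate the 2 cell states. FOX (TGTTTAC) was near the genome share of 3.00% in both, with 2.92% and 3.35%.

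ESC-only regions held the motifs of the pluripotency factors more often than MEF-only regions, at lower shares than AP-1 in MEFs. The octamer ATGCAAAT, which Oct4 binds, was in 3.88% (3.53 to 4.24) of distal ESC-only and 1.04% (0.942 to 1.14) of distal MEF-only windows, with 1.73% in tiles. The KLF motif GGGTGTGG was in 4.78% (4.40 to 5.18) and 1.97% (1.84 to 2.11), with 1.16% in tiles. The ESRRB motif TCAAGGTCA was in 1.02% (0.844 to 1.22) and 0.308% (0.256 to 0.366), with 0.415% in tiles. SOX (CATTGTT) was in 4.43% and 3.36%, with 3.99% in tiles, and ZIC (CCTGCTG) in 9.22% and 7.28%, with 3.95% in tiles. Distal shared regions held KLF at 4.81% and ZIC at 12.6%, as high as or higher than ESC-only regions. The octamer, ESRRB and SOX were lower in shared than in ESC-only regions, at 1.20%, 0.271% and 3.41%. The octamer and SOX letters overlap the Oct-Sox motif, so those counts share sites.

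The full Oct-Sox pattern was rare everywhere. Exact matches were in 12 of 11684 distal ESC-only, 3 of 40648 distal MEF-only and 3 of 2579 distal shared windows. With at most 1 mismatch, an alternative added after seeing the data, 1.43% (1.22 to 1.66) of ESC-only and 0.180% (0.141 to 0.226) of MEF-only windows had a match, with 0.228% in tiles. Outside mostly masked windows the ESC-only share was 2.23% (1.89 to 2.60) and the MEF-only share 0.180%. TFCP2L1 matches were in 16 ESC-only and 38 MEF-only windows, or 0.137% and 0.0935%, and those intervals overlapped. Distal shared windows held TFCP2L1 at 0.504% and Oct-Sox with at most 1 mismatch at 0.349%.

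CTCF, the insulator protein bound at many of the same sites in different cell types, was most frequent in the central windows of distal shared regions. Its motif was in 4.30% (3.55 to 5.16) of them, in 1.01% (0.918 to 1.12) of MEF-only and in 0.205% (0.132 to 0.305) of ESC-only regions, with 0.0487% in tiles. In MEF-only regions the 2 central steps held 0.207% and 0.204%, and the steps 150 bp out 0.664% and 0.684%. In shared regions the central steps held 0.582% and 0.853%, and the outer ones 0.388% and 0.271%. The 200 bp window leaves out these outer matches, so the MEF-only share does not count most sites seen there. The GC box GGGCGGG, bound by Sp factors, was in 13.6% of shared, 11.0% of ESC-only and 2.24% of MEF-only regions, with 0.968% in tiles. The ETS motif CCGGAAG was in 8.13% (7.64 to 8.64) of ESC-only, 3.37% of shared and 0.984% of MEF-only regions, with 0.559% in tiles. The order of MEF-only and ESC-only shares stayed as given under every alternative run for 15 of the 16 motifs, TEAD being the exception.

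**Figure D2:**
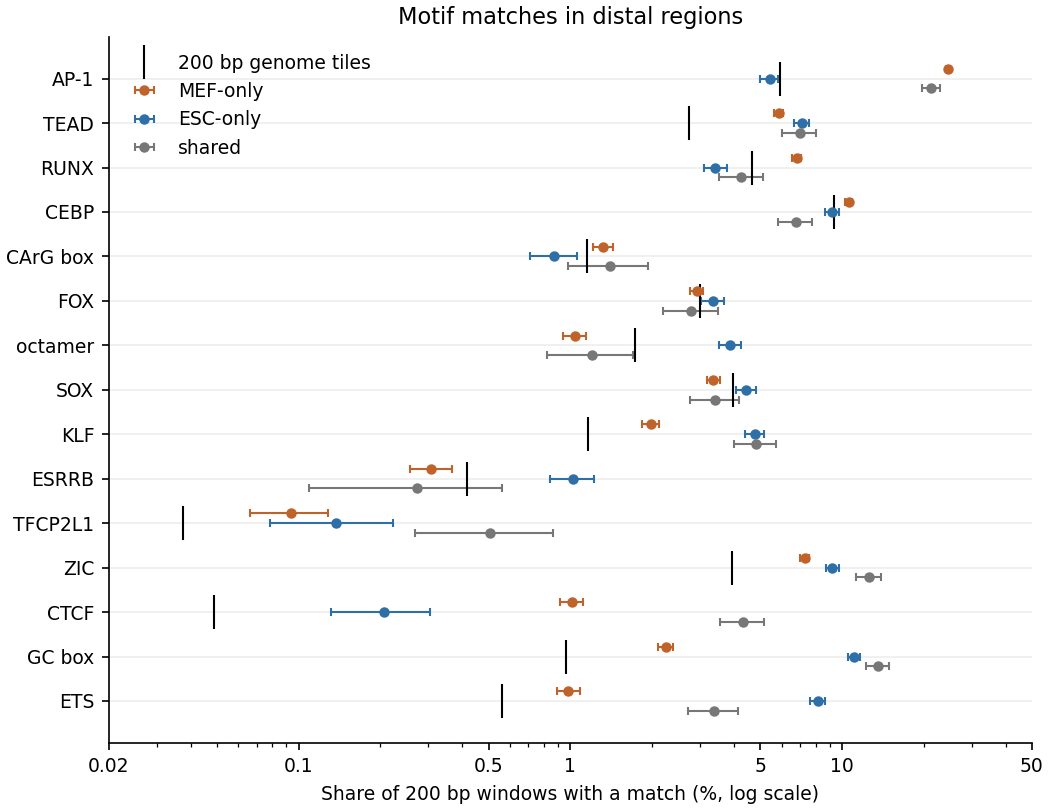
Share of distal 200 bp windows with a motif match (x axis, percent, log scale) for 15 motifs (y axis), with points and exact 95% intervals for MEF-only, ESC-only and shared regions and a black tick for genome tiles. AP-1 stands out in MEF-only (24.5%) and shared (21.3%) regions, octamer, KLF and ESRRB in ESC-only over MEF-only regions and CTCF in shared regions, while the TEAD order turns with equal numbers of widest peaks.

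Much of the ESC-only class lay in repeat-masked sequence, which is written in lower case in the reference genome. More than 50% of the window was masked in 41.2% (40.3 to 42.1) of distal ESC-only regions, in 5.47% (5.25 to 5.69) of distal MEF-only regions and in 2.95% (2.33 to 3.67) of distal shared regions, against 30.3% of genome tiles. Open chromatin of the other libraries lay largely outside such sequence. Of the distal peaks of each MEF-derived library, 5.33% (day 0) to 7.86% (day 2) were mostly masked, and of the distal ESC peaks 34.2% (33.4 to 35.0). With equal numbers of widest peaks, which leave the ESC list as it is, the shares were 38.6% in ESC-only and 2.25% in MEF-only regions.

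The 4812 mostly masked distal ESC-only regions differed from the other 6872 in several ways. Their median GC content was 57.5% against 49.0%, and 24.7% (23.5 to 25.9) against 3.45% (3.03 to 3.91) were CpG-rich. A peak on at least 1 of the 5 days of doxycycline was found over 11.5% (10.6 to 12.4) of them and over 32.7% (31.6 to 33.9) of the others. Their median distance to a TSS was 21.2 kb against 11.0 kb. The masked ESC-only regions repeated each other. A run of 30 bases that was present in at least 10 masked windows of the class occurred in 73.4% (72.1 to 74.6) of them, against 20.4% (18.7 to 22.1) of the 2222 mostly masked distal MEF-only regions, and the commonest single run was found in 898 ESC-only windows. Reads from repeated copies map to more than 1 place, and the mapping-quality filter is not given in the sources used here. The part of mapping in these regions was not tested.

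Masked sequence touched some of the motif shares and left others. The ETS motif was in 17.1% (16.03 to 18.2) of mostly masked and 1.86% (1.56 to 2.21) of the other distal ESC-only windows, and the GC box in 18.7% and 5.66%. Outside repeats the ETS motif was in 1.01% and the GC box in 2.29% of MEF-only windows, so the gap between the classes was narrower there. The reverse held for KLF, with 2.91% in masked and 6.08% (5.53 to 6.67) in other ESC-only windows, and for SOX, with 1.81% and 6.27% (5.71 to 6.87). In MEF-only windows that were not mostly masked KLF was at 1.96% and SOX at 3.39%. The octamer was in 4.68% of masked and 3.32% (2.91 to 3.77) of other ESC-only windows, against 1.03% of the other MEF-only windows. Outside repeats, AP-1 was in 24.9% of MEF-only and 6.93% of ESC-only windows, with 6.73% in tiles of that kind.

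**Figure D3:**
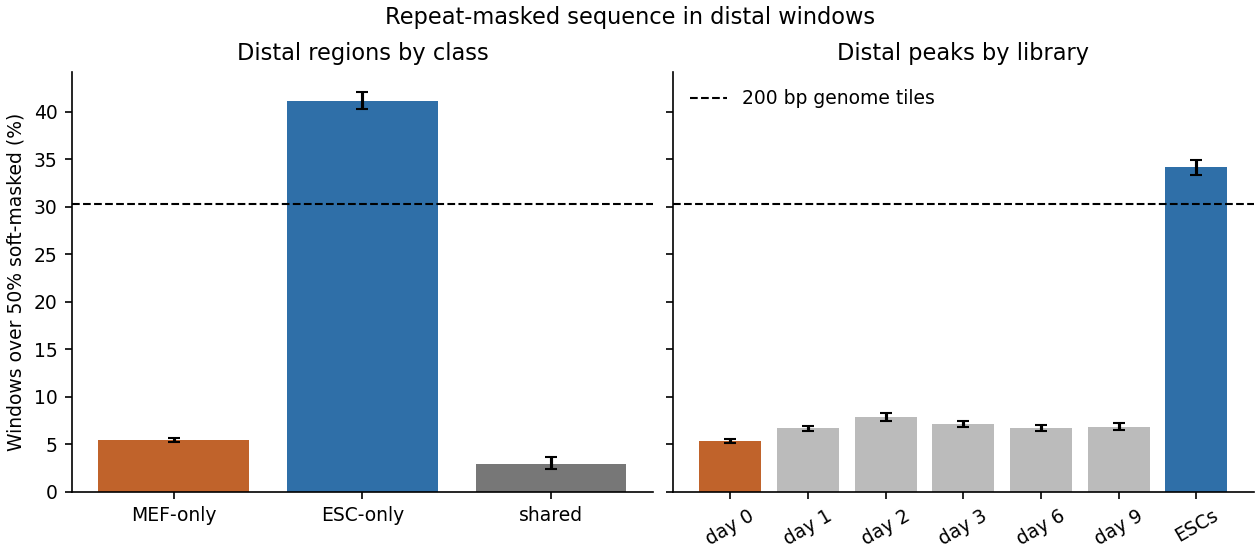
Share of distal 200 bp windows that are over 50% repeat-masked (y axis, percent) by region class on the left and by library on the right, with exact 95% intervals and the genome tiles as a dashed line. ESC-only regions (41.2%) and ESC peaks (34.2%) lie above the genome tiles (30.3%), and the classes and libraries with MEF peaks lie between 2.95% and 7.86%.

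Near genes, each region was assigned to the protein-coding gene with the nearest TSS within 1000 kb, and genes were counted by which class they had more of. Over all 22028 genes, 49.1% had more MEF-only and 9.66% more ESC-only regions. With the equal numbers of widest peaks this became 23.4% and 22.5%. The lists of cell state genes were put together with earlier results of these data known.

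Fibroblast genes had far more MEF-only than ESC-only regions. Of the 80 genes of 4 lists (fibroblast lineage transcription factors, AP-1, Runx, Tead and Cebp factors, matrix and mesenchymal genes, and contractile and matrix-remodelling genes), 72 had more MEF-only and 2 more ESC-only regions, with 608 MEF-only and 69 ESC-only regions in all. Of all genes 49.1% and 9.66% did. With equal numbers of widest peaks 59 had more MEF-only and 9 more ESC-only regions, against 23.4% and 22.5% of all genes. Of the 80 promoters 33 had a peak in MEFs alone and 0 in ESCs alone, against 12.0% and 2.71% of all genes. In both lists 36 had one, against 47.4%. With the widest peaks 22 had one in MEFs alone and 2 in ESCs alone, against 6.63% and 6.80%. The library labelled day 0 thus had a promoter peak at 69 of the 80 genes and the ESC library at 36. Over all 22028 genes the counts were 13092 and 11038.

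Among the transcription factors of the fibroblast lineage, 10 of 20 promoters were open in MEFs alone, and 6 with the widest peaks. Of all genes 12.0% and 6.63% were in that state. More MEF-only regions were found at 18 genes and more ESC-only regions at 1, against 49.1% and 9.66% of all genes. With the widest peaks the counts were 15 and 3, against 23.4% and 22.5%. *Zeb2*, a repressor of epithelial genes, had 30 MEF-only and 1 ESC-only region. Of its 30 MEF-only windows 9 had an AP-1 match, against 24.5% of all distal and 13.5% of all proximal MEF-only windows. *Zeb1*, its relative, had 20 MEF-only and 2 ESC-only regions. *Osr1*, a zinc finger factor of mesoderm, had 22 MEF-only and 0 ESC-only regions, and *Tbx18* had 15 and 6. An AP-1 match was in 5 of the *Zeb1*, 6 of the *Osr1* and 1 of the *Tbx18* MEF-only regions. *Twist2*, from which the sequence above was taken, had 14 and 1, and its promoter was open in MEFs alone. *Snai2* was the 1 gene of the list with more ESC-only regions, 2 against 0. Both of those were fully masked, 27622 and 19743 bp upstream, and its promoter peak was shared.

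In the list of AP-1, Runx, Tead and Cebp factors 16 of the 20 promoters were open in both libraries and 2 in MEFs alone. Of all genes 47.4% and 12.0% were in those states. The classes differed in their distal regions. *Runx1* had 38 MEF-only and 4 ESC-only regions, with an AP-1 match in 14 of the 38, against 24.5% of all distal MEF-only windows. *Runx2* had 16 and 2. *Tead1* had 12 and 5, and *Jun* had 11 and 1 beside 3 shared regions. An AP-1 match was in 7 of the *Runx2*, 3 of the *Tead1* and 2 of the *Jun* MEF-only regions. *Fos* and *Atf3* had 10 and 8 MEF-only regions and 4 shared regions each. Of the 20 genes, 18 had more MEF-only regions and 0 more ESC-only regions, against 49.1% and 9.66% of all genes. With the widest peaks the counts were 12 and 2, against 23.4% and 22.5%.

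Matrix genes had more MEF-only regions at 18 of 20 loci, and 11 of the 20 promoters were open in MEFs alone. Of all genes 49.1% had more MEF-only regions and 12.0% such a promoter. With the widest peaks 16 matrix genes had more MEF-only and 4 more ESC-only regions, against 23.4% and 22.5% of all genes. In that peak set 9 of the promoters were open in MEFs alone, against 6.63%. *Col1a2*, a chain of type I collagen, had 18 MEF-only and 0 ESC-only regions, of which the widest was 668 bp, 85312 bp upstream. The *Col1a2* region centred 0.73 kb downstream of the gene start, 530 bp wide, had a peak on all 5 days of doxycycline. *Cdh11*, the mesenchymal cadherin, had 22 MEF-only and 2 ESC-only regions, *Fn1*, fibronectin, had 18 and 4, and *Cdh2*, N-cadherin, had 17 and 7. *Col1a1*, whose locus carries the cassette, had 12 and 0. *Lum* had 1 region of each class, and *Vim* had 1 MEF-only and 2 ESC-only regions, both of the latter fully masked. The *Vim* promoter peak, 1270 bp wide, was shared. Of the 20 contractile and remodelling genes 18 had more MEF-only and 0 more ESC-only regions, and 16 and 0 with the widest peaks. All genes stood at 49.1% and 9.66%, and at 23.4% and 22.5% with the widest peaks. In the contractile list *Thbs1* had 27 MEF-only and 0 ESC-only regions, *Ccn2* 12 and 3, and *Tgfbi* and *Tpm1* 11 and 0 each.

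Genes of pluripotency had both classes of region, and which was more frequent turned with the peak set. Of the 40 genes of the 2 ESC lists, 17 had more MEF-only and 19 more ESC-only regions, against 49.1% and 9.66% of all genes, with 146 MEF-only and 108 ESC-only regions in all. With equal numbers of widest peaks 30 had more ESC-only and 5 more MEF-only regions, against 22.5% and 23.4% of all genes. Among regions that were not mostly masked, a limit added after seeing the data, 18 had more MEF-only and 17 more ESC-only regions, against 73 and 0 of the 80 fibroblast genes. A promoter peak was called at 22 of the 40 genes on day 0 and at 17 in ESCs, beside 13092 and 11038 of the 22028 genes. Of the 40 promoters 9 were open in MEFs alone and 4 in ESCs alone, against 12.0% and 2.71% of all genes. With the widest peaks the order turned, with 4 in MEFs alone and 7 in ESCs alone, against 6.63% and 6.80% of all genes.

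The core factors showed this at the level of single loci. *Pou5f1*, which encodes Oct4, had an ESC-only region of 423 bp (chr17:35503828-35504250) 1768 bp upstream of its start, with a KLF match and no peak on any of the 5 days. The study placed a tested enhancer at about this distance upstream and described it as becoming accessible in the course of reprogramming. A region without a called peak may still have been open below the threshold. The *Pou5f1* region over the first exon was a MEF-only region of 561 bp (chr17:35506035-35506595), seen again on day 9. The cassette carries the cDNAs of the 4 factors, so cassette fragments could map to their exons, and this was not tested. *Sox2* had no promoter peak in either list, and 4 of its 6 ESC-only regions lay far downstream, at 94.6 kb (598 bp, chr3:34745045-34745642), 107 kb (205 bp, with an ESRRB match), 111 kb (472 bp) and 137 kb (200 bp). The other two were 257 bp wide, 74059 bp upstream, and 233 bp wide, 480 kb downstream and fully masked. A distal enhancer region downstream of *Sox2* is known to drive the gene in ESCs. *Sox2* also had 10 MEF-only regions.

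*Nanog*, the homeodomain factor of naive pluripotency, had 0 ESC-only, 2 MEF-only and 2 shared regions, and no promoter peak in either list. Its shared regions, 37612 and 4264 bp upstream and 586 and 843 bp wide, had a peak on every day. *Klf4*, which fibroblasts express too, had 28 MEF-only and 3 ESC-only regions, the latter at 54.5, 56.6 and 67.8 kb downstream with no peak on any day. *Esrrb*, an orphan nuclear receptor, had 6 ESC-only and 4 MEF-only regions, and none of its ESC-only regions had a peak on days 1 to 9. The *Esrrb* region at an internal TSS (300 bp, chr12:86504431-86504730) held KLF, ESRRB and TFCP2L1 matches. *Zfp42* (Rex1), a marker of naive ESCs, had a single region, an ESC-only promoter region of 598 bp (chr8:43306843-43307440) with octamer, KLF and GC box matches and no peak on any day.

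The ESC-only regions were most numerous at *Mycn*, a Myc family gene, with 9 ESC-only and 4 MEF-only regions, and at *Klf5* and *Tfap2c*, with 8 ESC-only regions each and 4 and 2 MEF-only ones. *Klf5* had a shared promoter region with peaks on all days, and a 1027 bp ESC-only region 40.9 kb downstream (chr14:99339624-99340650) without a peak on any day. *Tfap2c*, a factor of the germline and of naive cells, had a 763 bp ESC-only region 27.4 kb downstream with a KLF match and peaks on days 6 and 9. *Nr5a2*, a nuclear receptor upstream of *Pou5f1*, had 8 ESC-only and 9 MEF-only regions, and *Tbx3* had 5 and 8.

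In the list of ESC surface, germline and signalling genes, *Jarid2*, a partner of Polycomb, had 20 MEF-only and 7 ESC-only regions, and *Tet2*, a DNA demethylation enzyme, had 10 and 3. *Spp1* had 9 and 3 and *Dppa3* 5 and 2. *L1td1* had 2 MEF-only and 4 ESC-only regions, and *Tdh*, threonine dehydrogenase of mouse ESC metabolism, had 1 and 3. The *Tdh* promoter region (586 bp) was ESC-only with a KLF match and no peak on any day. A second *Tdh* region of 910 bp at an internal TSS, with an octamer match, had a peak on all 5 days. Over both ESC lists, the promoters open in ESCs alone were those of *Zfp42*, *Fgf4*, *Dppa2* and *Tdh*. The 9 open in MEFs alone were those of *Tfcp2l1*, *Nr5a2*, *Utf1*, *Tfap2c*, *Mycn*, *Tdgf1*, *Dppa3*, *Dnmt3b* and *Dnmt3l*.

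Epithelial genes had few regions but the most promoters open in ESCs alone of any list. Of the 20 genes 6 had a promoter peak in ESCs alone (30.0%, against 2.71% of all genes) and 1 in MEFs alone, against 12.0%. With the widest peaks the counts were 6 and 0, against 6.80% and 6.63% of all genes. In that peak set 4 of the 15 primitive endoderm and trophoblast genes (26.7%) also had a promoter peak in ESCs alone. Among the epithelial promoters open in ESCs alone were *Cdh1* (E-cadherin) and *Cldn3*, *Cldn7* and *Ocln* (tight junctions). The *Cdh1* promoter region was 502 bp wide (chr8:106603080-106603581) and had no peak on any day. Its other ESC-only regions, 4.98 and 29.1 kb into the gene, had none either. A shared *Cdh1* region 16.1 kb into the gene, 613 bp wide with an AP-1 match, had peaks on days 2, 3, 6 and 9. *Grhl2*, an epithelial master factor, had 4 ESC-only and 2 MEF-only regions, and 1 of the 4 had a peak, on day 9. *Epcam* had 3 of each.

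**Figure D4:**
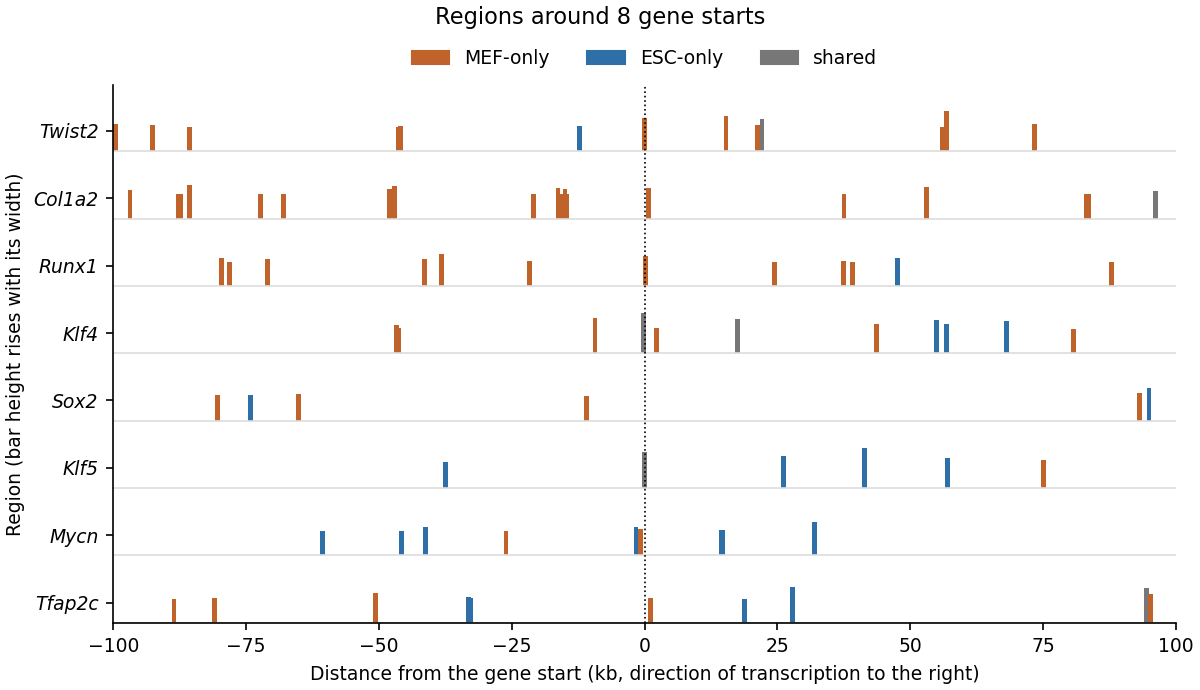
Regions within 100 kb of 8 gene starts (rows), placed by distance from the start in kb (x axis), coloured by class, with bar height rising with region width. MEF-only regions surround *Twist2* (11 of 13 regions), *Col1a2* (18 of 19) and *Runx1* (11 of 12), while *Klf5* (4 ESC-only of 6) and *Mycn* (7 of 9) have mostly ESC-only regions, and *Sox2* and *Tfap2c* have both.

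Over all protein-coding genes, the loci with the most distal MEF-only regions were *Lpp* (51), *Pde4d* (50), *Zfp608* (45), *Myc* (44), *Runx1* (37), *Klf6* and *Rbms3* (34 each), *Dnm3* (33), *Adgrl2* (32) and *Auts2* (31). *Lpp* encodes an actin-associated adaptor of focal adhesions and *Pde4d* a cAMP phosphodiesterase. *Myc* thus had far more distal regions in MEFs, 44 against 6 ESC-only ones, and its relative *Mycn* had more in ESCs. The loci with the most distal ESC-only regions were *Zfhx3* (16), *Tbl1xr1* and *Oxr1* (14 each), *Etl4* (13), *Dpp6* (12) and *Ptprg*, *Phf3*, *Ptprd*, *Tns3* and *Abcc4* (11 each). Several of these are long genes, and *Zfhx3*, *Tbl1xr1*, *Ptprg* and *Tns3* had more MEF-only than ESC-only regions. *Dpp6*, with 2 MEF-only and 13 ESC-only regions, and *Oxr1*, with 6 and 15, were open mainly in ESCs.

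MEF-only regions came in denser runs than ESC-only ones. When regions of 1 class were joined across gaps of at most 10 kb, 53.7% (53.2 to 54.1) of MEF-only regions were in runs of 2 or more, and 23.6% (22.9 to 24.3) of ESC-only regions. Runs of 5 or more numbered 423 for MEF-only and 6 for ESC-only regions. The class sizes differ, so the 2 shares are not on equal ground. The longest MEF-only run held 12 regions over 57.1 kb of chromosome 11, with the lincRNA genes *Gm39822* and *Gm26551*. Another, of 11 regions over 56.98 kb of the X chromosome, lay within *Firre*, a long non-coding RNA gene. A run of 10 regions over 55.6 kb lay at *Timp2*, an inhibitor of matrix metalloproteinases.

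The largest ESC-only run was at the miR-290 cluster, with 6 regions over 29.4 kb (chr7:3192990-3222356). The miRNAs of this cluster are abundant in ESCs and promote their rapid cell cycle. A miRNA finds its target mRNAs through the seed, bases 2 to 8. The 3p mature sequences that RefSeq (GRCm38.p6) files under plus-strand miRNA gene names of the run are shown for their related seeds. The seeds are in capitals. No sequence was matched to the annotated gene *Mir292*, so the cluster is not shown in full.
miR-290a-3p: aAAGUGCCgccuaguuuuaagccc
miR-291a-3p: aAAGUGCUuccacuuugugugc
miR-291b-3p: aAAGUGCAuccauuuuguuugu
miR-293-3p: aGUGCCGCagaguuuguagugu
miR-294-3p: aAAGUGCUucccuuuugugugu
miR-295-3p: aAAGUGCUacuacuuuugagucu

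Of these 6 miRNAs, 3 share the seed AAGUGCU (miR-291a-3p, miR-294-3p and miR-295-3p). The annotation places 9 miRNA genes in the run, and none of the 6 mature sequences lay under a called region. Upstream of the miRNAs were ESC-only regions of 337, 558, 518 and 460 bp, and downstream ones of 756 and 268 bp. The 460 bp region had a peak on all 5 days and the 558 bp region on days 3, 6 and 9, whereas the other 4 had none on any day. A MEF-only region of 258 bp also lay within the run. The next 4 ESC-only runs had 5 regions each and lay at *Etv5*, an ETS factor of ESCs, *Grik3*, *Nynrin* and *Npas2*.

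Other cell types and control genes gave the background for these lists. Ribosomal protein genes, which every cell needs, had a promoter peak in both libraries at 18 of 20 genes and in MEFs alone at 2. Of all genes 47.4% and 12.0% were in those states. With the widest peaks 17 ribosomal protein genes had one in both, against 43.3% of all genes. *Hox* genes, which keep a positional code in fibroblasts, had a promoter peak in MEFs alone at 8 of 20 genes, in both at 7 and in ESCs alone at 0. The shares of all genes were 12.0%, 47.4% and 2.71%. In all, 2 of the 20 *Hox* genes had one in MEFs alone with the widest peaks, against 6.63% of all genes. Of the 15 blood and macrophage genes, 7 had a promoter peak in MEFs alone (46.7%), namely *Spi1*, *Csf1r*, *Itgam*, *Cd14*, *Tyrobp*, *Lyz2* and *Coro1a*, and 5 had none in either list, namely *Ptprc*, *Adgre1*, *Fcer1g*, *Cd48* and *Gata1*. *Ptprc*, which all leukocytes express, had 20 MEF-only and 4 ESC-only regions, of which 15 and 4 were distal, and *Cd48* and *Gata1* had no region. Of the 15 endothelial genes 6 had a promoter peak in MEFs alone, among them *Pecam1* and *Cdh5*. Of all genes 12.0% were in that state. In the widest peaks 4 blood and 2 endothelial genes had one in MEFs alone and 2 and 1 in ESCs alone, against 6.63% and 6.80% of all genes. MEF cultures can hold such cells, and their part in the MEF-only regions was not tested.

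For early lineages the counts depended on the peak set. Of 15 primed epiblast and early lineage genes 12 had more MEF-only and 2 more ESC-only regions, and *Otx2*, a factor of the epiblast, was 1 of the 2, with 8 ESC-only regions against 2. The counts were 7 and 4 with the widest peaks. Of 15 primitive endoderm and trophoblast genes 11 had more MEF-only and 2 more ESC-only regions, and *Sox17* had 4 ESC-only and 0 MEF-only regions. This list turned with the widest peaks, to 5 and 7. All genes stood at 49.1% and 9.66% with all peaks and at 23.4% and 22.5% with the widest. The 15 neural and muscle genes had the fewest regions, 14 MEF-only and 13 ESC-only in all, and 6 had more MEF-only and 3 more ESC-only regions, or 1 and 8 with the widest peaks. *Olig2* had 5 ESC-only and 0 MEF-only regions.

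The libraries of days 1 to 9, which took no part in defining the classes, were then searched for peaks over the regions of each class. Between 86.2% (day 2) and 93.4% (day 6) of shared regions had a peak on a given day. A MEF-only region had a peak on day 1 in 32.4% of cases (32.0 to 32.9), on day 2 in 20.7%, on day 3 in 33.0%, on day 6 in 30.6% and on day 9 in 20.0% (19.7 to 20.4). An ESC-only region had one on day 1 in 12.4% of cases (11.9 to 13.0), on day 2 in 10.9%, on day 3 in 16.7%, on day 6 in 17.4% and on day 9 in 14.3% (13.7 to 14.9). The low values of days 2 and 9 go with the shortest of the doxycycline lists, 33174 and 33007 peaks, against 44855 to 48087 on the other days. Whether list length accounts for them was not tested.

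The share of ESC-only regions with a peak was highest on day 6, at 17.4%, and was 14.3% on day 9. The day 9 list is shorter, with 33007 peaks against 44855. The study's protocol also moves the cells to ESC medium when the first colonies emerge, between these days by its timing. The part of list length and medium was not tested. Of the 13808 ESC-only regions, 26.3% (25.5 to 27.0) had a peak on at least 1 of the 5 days and 5.58% on all 5. Of the MEF-only regions 48.5% (48.0 to 48.9) had one on at least 1 day and 10.5% on all 5. Regions near a TSS were more often seen in both classes. At least 1 day had a peak at 66.4% of proximal and 45.1% of distal MEF-only regions, and at 38.9% of proximal and 24.0% of distal ESC-only regions.

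**Figure D5:**
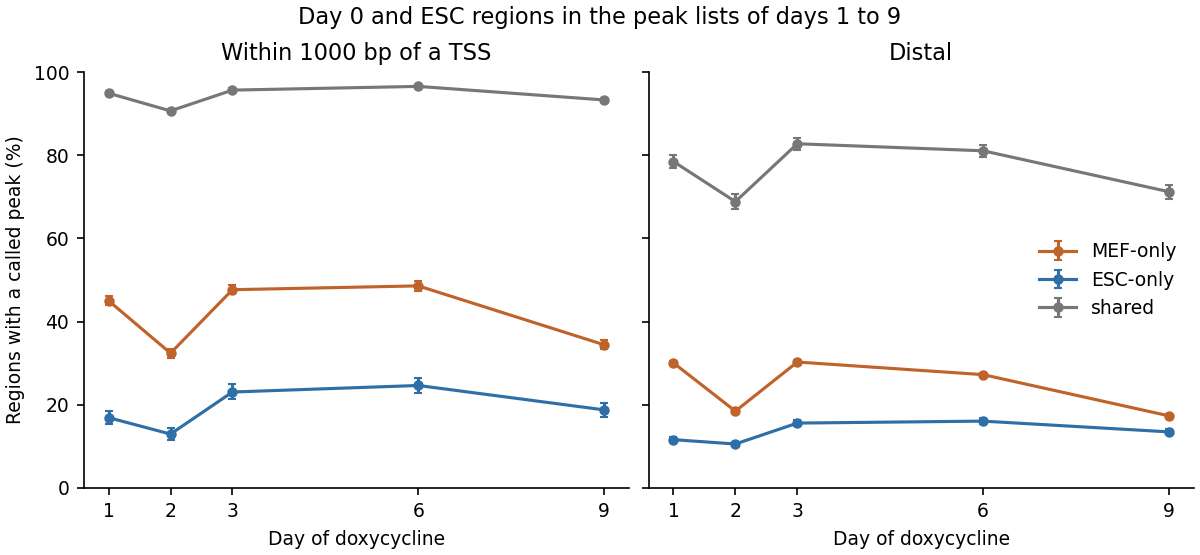
Share of day 0 and ESC regions with a called peak (y axis, percent) on each day of doxycycline (x axis), near a TSS on the left and distal on the right, with exact 95% intervals. Shared regions stay highest, MEF-only regions lie above ESC-only regions on each day, and all 3 classes dip on day 2.

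The regions that lasted differed in sequence from those that did not. AP-1 was in 22.1% (21.5 to 22.6) of the distal MEF-only regions without a peak on any day and in 31.2% (29.7 to 32.8) of those with a peak on all 5. The median width of these groups was 245 bp and 562 bp, and AP-1 also rose with width, so the 2 trends cannot be told apart here. CTCF in the central 200 bp went from 0.233% to 3.11% between the same groups. Width differed here too, and CTCF matches 150 bp off the centre were not counted. Among distal ESC-only regions the octamer was in 3.4% (3.03 to 3.80) of those without a peak on any day and in 7.46% (5.57 to 9.74) of those with a peak on all 5. AP-1 went from 4.33% (3.92 to 4.78) to 11.4% (9.09 to 14.1). Mostly masked windows made up 48.0% of the ESC-only regions never seen on the 5 days and 14.6% of those seen on all 5.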

How the data were processed

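ATAC-seq was made by the authors from 50000 cells per library, with 1 library per time-point. Per the study's methods, the authors cut reads to 50 bp (Trimmomatic), aligned them end to end to mm10 (Bowtie2, very sensitive setting), ran SAMtools fixmate, dropped duplicates (Picard) and brought the libraries to 1 common depth, which is not stated. They called peaks per library with MACS2 without a model at a q-value of 0.05. The deposited files list peak positions alone (chromosome, start, end), without any score or signal, so the reads behind a peak are unknown.

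The members and gene lists were chosen with earlier results of these data known. Peaks of day 0 and ESCs were intersected at 1 bp or more (checked against BEDTools 2.31.1) and merged into regions with Python 3.11.15 and numpy 2.4.6. Regions were proximal within 1000 bp of a GENCODE M21 TSS and distal otherwise, and were assigned to the protein-coding gene with the nearest TSS within 1000 kb. Motifs were searched on both strands in the central 200 bp of GRCm38.p6, whose chromosome lengths equal those of mm10. Regions without such a window are left out of motif counts. All 255 genes of 14 lists matched the annotation. Named genes are up to 4 per list and class with the most regions, and the 10 with the most distal regions of each class, and genes of the lists are also named where their own state is described. Some genes that this rule names are not reported here. Esrrb, Nanog, Pou5f1 and Zfp42 were chosen by name as well-known ESC genes. Shares have exact (Clopper-Pearson) 95% intervals from scipy 1.17.1. No test was made between libraries. Tested on simulated data, the code found 100% of 800 planted motifs and of the overlaps planted in 2000 peaks. Alternatives were equal numbers of widest peaks, peaks at least 300 bp wide, overlap of at least 50% of both peaks, a peak within 500 bp, TSS distances of 500 and 2500 bp, protein-coding TSSs alone, 400 bp windows and windows of 40 to 50% GC.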

Additional observations from a re-analysis of the deposited data

How the results depend on the processing

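A stricter score or q-value could not be applied, since the lists hold none, and peak width took its place. No paired analysis was possible because each side is 1 library, and no replicate could be left out. Of 612 alternative values, 397 stayed within the interval or margin of the reported value and 215 moved, and the cause was not tested. With equal numbers of widest peaks, 39.2% of day 0 and 41.8% of ESC peaks were shared, 18.3%, 20.1% and 83.8% of MEF-only, ESC-only and shared regions were proximal and 44.6% of distal MEF-only windows held AP-1. MEF-only regions then had a day 1 peak in 35.5% and a day 9 peak in 28.9%, ESC-only regions a day 9 peak in 16.5%, 9 genes of the MEF lists had more ESC-only regions, and 5 and 30 genes of the ESC lists had more MEF-only and more ESC-only regions. With peaks of at least 300 bp, the shared shares were 25.3% and 52.6%, the proximal shares 22.8%, 15.996% and 87.4%, AP-1 in MEF-only windows 38.9%, day 1 peaks 33.4% of MEF-only and 11.4% of ESC-only regions, day 9 peaks 21.4% and 12.5%, and 4 MEF-list genes had more ESC-only regions. With an overlap of 50% of both peaks these were 13.99% and 31.7%, then 20.2%, 29.4% and 84.2%, with 6.50% for AP-1 in ESC-only windows, 21.9% and 11.6% on day 1 and 14.6% and 12.9% on day 9. With a peak within 500 bp they were 23.3% and 51.7%, then 14.5%, 13.2% and 76.3%, with 36.6% and 13.1% on day 1 and 22.9% and 15.2% on day 9. The proximal shares were 12.5%, 11.9% and 77.4% within 500 bp of a TSS, 23.4%, 22.5% and 82.0% within 2500 bp and 12.3%, 11.3% and 75.7% with protein-coding TSSs alone. AP-1 was in 43.6% of MEF-only and 10.7% of ESC-only windows of 400 bp, and in 26.2% and 7.83% at 40 to 50% GC. Chosen after seeing the data were the limits to windows at most 50% masked, where AP-1 was in 6.93% of ESC-only windows and 0 genes of the MEF lists had more ESC-only regions, and Oct-Sox with at most 1 mismatch, in 0.180% of MEF-only and 1.43% of ESC-only windows. TEAD was higher in MEF-only than ESC-only windows with equal numbers of widest peaks alone, and the other 15 motifs kept their order under each alternative run. Read depth is unknown, so a region without a peak may have been open below the authors' threshold.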
